A study of Mus musculus with 8 samples.

Results

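In 1685 genes of mouse brain, the proximal and the distal cleavage site counted in the 3′-most exon lay at most 100 bases apart. These close pairs were taken from a table of 7951 genes, 1 pair a gene, by 2 conditions: the listed positions differed by 100 bases or less (1696 pairs), and the reads of both sites averaged 20 or more over the 8 libraries, which left out 11 of them. Close pairs made up 21.2% of the table, beside 1877 farther pairs up to 500 bases apart, 2554 beyond that and up to 2000 bases, and 1760 over 2000 bases apart. In 35 close pairs the counts equalled those of another close pair in all libraries, so that 1656 sets of counts were distinct. The shared sets were 25 protocadherin gamma cluster entries, which use common last exons, and 5 sets of 2 genes, among them Nptxr with Npcd, and Hbb-b1 with Hbb-bs.

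The libraries came from total brain of mice on the C57BL/6NCrl background at postnatal day 50. The 5 mutants carried Cstf2 D50A, an exchange of aspartate for alanine at residue 50, and the 3 controls were wild-type littermates; all were untreated. Because the tissue was whole brain, a change in which cells were present and a change in RNA per cell cannot be told apart. The labels describe separate animals, and p-values measure the spread between these 8 samples. The comparison asked whether the choice between 2 neighbouring cleavage sites differed between the genotypes.

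A polyadenylated mRNA 3′ end is made by cleavage downstream of a polyadenylation signal, which the CPSF complex recognises, followed by addition of the tail. CSTF2 binds U-rich and GU-rich RNA just downstream of the cleavage position through its RNA recognition motif and helps to place the cut. Cleavage is often not at 1 fixed nucleotide, so sites a short way apart can be alternative cuts behind 1 signal or can have signals of their own, and the mRNAs they give differ only in the last stretch of the 3′ UTR. No sequence of these sites was used here, so these arrangements could not be told apart.

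The table held between 9616953 and 17530761 reads a library, of which close pairs took 26.5% to 28.6%. The levels of cerebellar marker genes separated 4 libraries from the other 4: the mean of 17 measured genes of 31 listed was 6.09, 5.84 and 6.12 log2 CPM (read counts scaled to library size) in wild types 1 to 3, 4.78, 4.71, 4.58 and 4.72 in mutants 1 to 4 and 5.96 in mutant 5. The mean of 4 measured endothelium and pericyte genes of 10 listed, Flt1, Rgs5, Slc2a1 and Tek, was 4.49, 4.77 and 5.49 log2 CPM in the wild types and 6.03, 5.77, 5.38, 6.10 and 5.08 in the mutants. Excitatory neuron genes, 9 of 10 measured, ranged from 7.61 to 8.37 in wild types and from 8.35 to 8.57 in mutants. Oligodendrocyte genes, 11 of 14 measured, spanned 6.58 to 6.74 and 6.65 to 6.86.  These levels move with several results below, and their part in those results was not tested.

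The distance between close sites was uneven within the limit. None of the pairs was less than 25 bases apart, and the counts were highest at that edge, with 153 pairs at 25 bases, 144 at 26, 94 at 27, 91 at 28 and 80 at 29. These 562 pairs were 33.4% of the total. The count then declined to 74 at 30 bases and 8 at 40, and from 41 to 100 bases it was spread out, with 325 pairs at 41 to 60, 248 at 61 to 80 and 185 at 81 to 100. The median distance was 36 bases (quartiles 28 and 62).

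**Figure D1:**
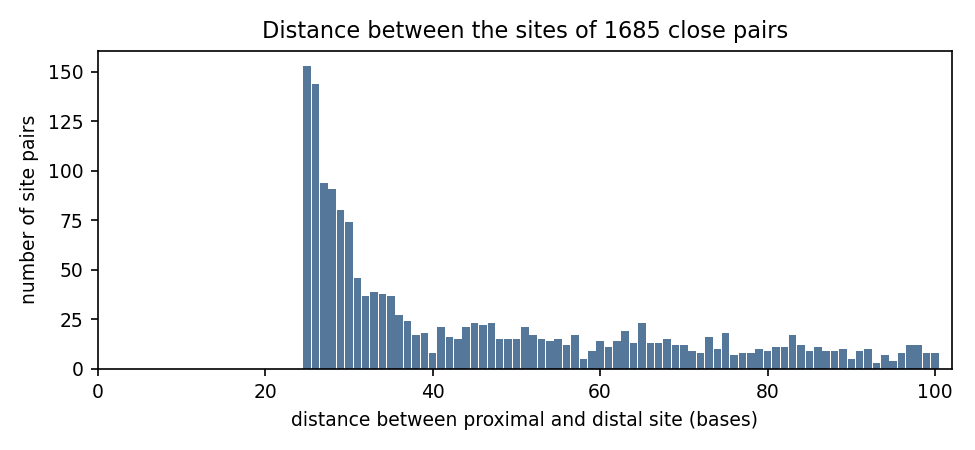
Number of close pairs (vertical axis) at each distance between the proximal and the distal site in bases (horizontal axis). No pair lies below 25 bases, the bars are tallest at 25 and 26 bases with 153 and 144 pairs, and they flatten out beyond 40 bases.

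Either site could be the main one. The distal share, which is the reads at the distal site as a percentage of the reads at both, had a median of 53.4% over pairs in wild type (quartiles 18.0% and 85.2%) and 56.9% in mutants. In wild type the distal site held more than 50% of the reads in 885 pairs, or 52.5%. The share was below 10% in 295 pairs and above 90% in 324, and 215 pairs lay between 40% and 60%.

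Which site was the main one differed with the direction of the gene along the coordinates, most of all at the shortest distances. Among pairs 25 to 29 bases apart, the median wild-type distal share was 31.3% in the 263 pairs whose distal site had the higher coordinate and 60.5% in the 299 pairs whose distal site had the lower one. The distal site was the main one in 33.5% of the former and 57.9% of the latter. The medians were 54.4% (105 pairs) and 64% (129 pairs) at 30 to 34 bases, and 56.3% (70 pairs) and 53.5% (61 pairs) at 35 to 40. At 41 to 100 bases they were 54.2% (383 pairs) and 57.2% (375 pairs). In the class beyond 100 and up to 500 bases they were 57.6% (970 pairs) and 54.5% (907 pairs). Over 500 bases they were 47.3% (2171 pairs) and 53.0% (2143 pairs), in the same direction as at 25 to 29. The mutants had the same asymmetry at 25 to 29 bases, with medians of 31.7% and 62.1%. How the authors delimited neighbouring sites is not stated in the sources used here, and its part in this asymmetry was not tested.

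Close pairs were also measured with less spread than the others. The median standard deviation of the log2 ratio of distal to proximal reads within a genotype was 0.41 in close pairs and 0.48 in all other pairs, and the median read number was 632 against 415. Within close pairs this spread was 0.27 at 25 to 29 bases, 0.48 at 41 to 60 and 0.57 at 81 to 100. Among pairs with more than 1790.9 reads, the spread was likewise 0.21 at 25 to 40 bases and 0.36 at 41 to 100. Across the 1685 pairs, which share their libraries and differ in depth, Spearman's rho was 0.40 between distance and this spread and -0.43 between reads and the spread.

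No close pair differed between the genotypes by the main test. The reads of both sites of each pair were fitted with edgeR's quasi-likelihood model over all 7876 pairs with enough reads, and the log2 change given throughout is that of the distal to proximal ratio in mutants against wild type, so that positive values mean relatively more distal reads in mutants. All 1685 close pairs were tested. edgeR called 0 of them after Benjamini-Hochberg adjustment (0.0% of all tested pairs were called), with a lowest adjusted p of 0.354, and limma called 0. DESeq2 called 1, Mfsd14a, where it called 0.267% of all tested pairs. The median log2 change was 0.18 over close pairs (quartiles -0.09 and 0.50), 0.11 over all tested pairs and 0.09 over the pairs more than 100 bases apart. It was above 0 in 67.7% of close pairs and in 56.9% of the others.

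At an unadjusted edgeR p under 0.05, 148 close pairs had more distal reads in mutants (8.78%, where 9.17% of all tested pairs did) and 28 had more proximal reads (1.66%, where 4.47% did). The share toward the distal site was thus near that of the whole table, while the share toward the proximal site was lower than in the whole table. The 3 classes of wider pairs had between 5% and 5.54% toward the proximal site, with the highest share in the class up to 500 bases. The difference between these classes was not tested. The total of 176 depended on single libraries: it was 71, 43 and 348 without wild type 1, 2 or 3, and 100, 92 and 442 without mutant 1, 2 or 5. With the cerebellar marker level as a covariate it was 17, 9 distal and 8 proximal, and the median log2 change over close pairs was -0.04. That level was 5.84 to 6.12 log2 CPM in the wild types and 4.58 to 4.78 in mutants 1 to 4. Only mutant 5, at 5.96, lay within the wild-type range. The covariate thus largely coincides with genotype, so neither this fit nor the covariate values below can tell the marker level and genotype apart. For the fits without a library or with the covariate, the share over all tested pairs is not given here. These changes in the total therefore cannot be read as particular to close pairs.

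The mean distal share was 10 percentage points or more higher in mutants at 150 close pairs (8.90%, where 9.28% of all tested pairs were) and as much lower at 27 (1.60%, where 4.1% were). The main site by mean share changed from proximal in wild type to distal in mutants at 64 pairs and the other way at 19. The matching shares of all tested pairs are not given here, so this imbalance cannot be read as particular to close pairs. In 58 close pairs, or 3.44%, all 5 mutants had a higher distal share than all 3 wild types (as had 2.53% of all tested pairs), and in 29, or 1.72%, a lower one (as had 1.63% of all tested pairs). The total of 87 was 140, 159 and 406 without wild type 1, 2 or 3 and 157 and 304 without mutant 4 or 5. Leaving out a library itself makes separation easier in any pair. The matching shares over all tested pairs are not given here, so these rises cannot be read as particular to close pairs.

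**Figure D2:**
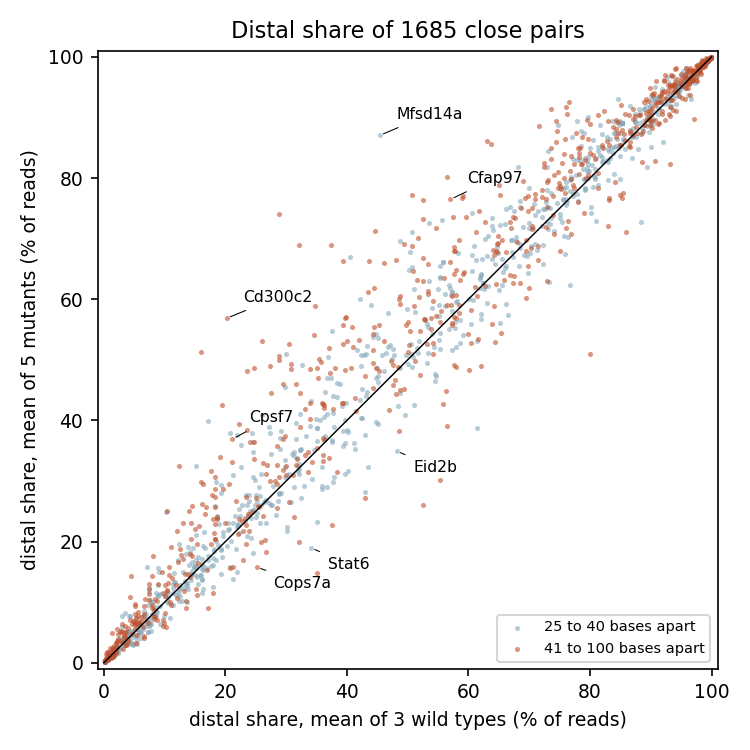
Mean distal share (percent of reads) of each of the 1685 close pairs in 3 wild types (horizontal axis) and 5 mutants (vertical axis), coloured by the distance between the sites, with a line of equality. More points lie above the line than below it, among them Mfsd14a at 45.4% and 87.0%, and Stat6, Cops7a and Eid2b are labelled below it.

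Within the limit of 100 bases, the median of the fitted log2 changes was larger at 41 to 100 bases than at 25 to 40, and did not climb further within the longer range. The median log2 change was 0.08 at 25 to 29 bases, 0.14 at 30 to 34, 0.19 at 35 to 40, 0.32 at 41 to 60, 0.34 at 61 to 80 and 0.28 at 81 to 100. Beyond the limit it was 0.14 up to 150 bases, then 0.10 up to 200, 0.08 up to 300 and 0.08 up to 500. Of the 927 pairs at 25 to 40 bases, 4.85% were toward the distal site at an unadjusted edgeR p under 0.05 and 1.62% toward the proximal one. Of the 758 pairs at 41 to 100 bases, 13.6% and 1.72% were. A measure that does not pair the values by gene, the genotype difference in the median log2 ratio of each library, gave a less regular order: 0.14, 0.04, 0.47, 0.43, 0.29 and 0.15 over the 6 ranges up to 100 bases. By that measure pairs at 81 to 100 bases were close to those at 25 to 29, and pairs at 35 to 40 were highest. The subdivisions at 29, 34 and 40 bases, and those beyond 100 bases, were chosen after the values had been seen, and differences between them were not tested.

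This contrast between the shorter and the longer distances was present at all levels of distal share and of depth. At 41 to 100 bases, the median log2 change was 0.32, 0.40, 0.27 and 0.28 in pairs with a wild-type distal share up to 10%, 50%, 90% and 100%, against 0.05, 0.07, 0.14 and 0.07 at 25 to 40 bases. By quartiles of read number, from lowest to highest, it was 0.25, 0.34, 0.30 and 0.34 at 41 to 100 bases and 0.09, 0.05, 0.16 and 0.07 at 25 to 40 bases. It was 0.20 in pairs whose distal site had the higher coordinate and 0.15 in those with the lower one. With the cerebellar covariate, a setting applied to these ranges after the data were seen, the medians were -0.06 at 41 to 100 bases and -0.02 at 25 to 40. The 35 pairs that share counts all lie at 25 to 40 bases, and 25 of them have the same counts. Each is counted in the medians there, and none lies at 41 to 100 bases. Medians of the narrower groups at 25 to 40 bases, here and above, are not given without these pairs.

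The libraries of a genotype did not move together. The median over close pairs of the log2 ratio of distal to proximal reads was 0.12, 0.09 and 0.39 in wild types 1 to 3, and 0.59, 0.57, 0.39, 0.53 and 0.13 in mutants 1 to 5. Wild type 3 thus stood with mutant 3, and mutant 5 stood with wild types 1 and 2, so the genotypes overlapped. The means were 0.20 ± 0.166 (SD, n = 3) and 0.44 ± 0.189 (SD, n = 5), a difference of 0.24. It was 0.134 when the reads of all close pairs were pooled and ran from 0.185 to 0.336 without single libraries. Wild type 3 had the highest distal share of the wild types in 53.5% of close pairs, and mutant 5 the lowest of the mutants in 45.4%.

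Set against each pair's wild-type mean, the shift at 41 to 100 bases was 0.55, 0.48, 0.25 and 0.38 in mutants 1 to 4, -0.11 in mutant 5, and -0.14, -0.12 and 0.27 in the wild types. At 25 to 29 bases the order differed: mutants 1, 2 and 3 stood at 0.15, 0.13 and 0.13, while mutants 4 and 5 were at 0.02 and -0.01 and the wild types at -0.02, -0.01 and 0.03. Mutant 4 was therefore above mutant 3 at the longer distances and with the wild types at the shortest. Wild type 3 was above the other wild types at the longer distances and near them at the shortest. As the wild-type mean includes wild type 3, a high value there sets the other wild types lower by construction.

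**Figure D3:**
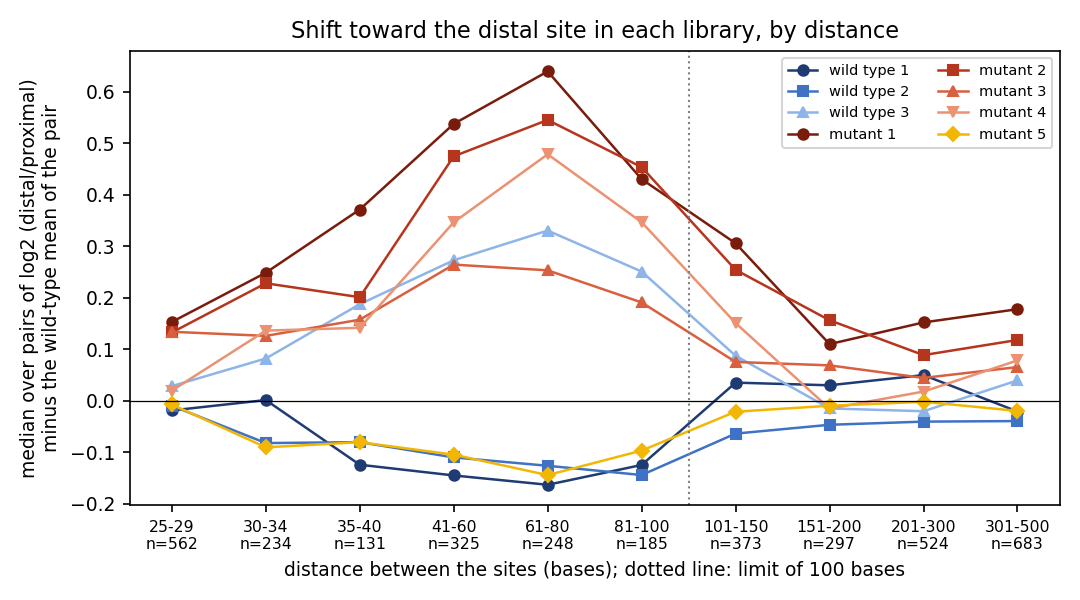
Median over pairs of the log2 ratio of distal to proximal reads minus the wild-type mean of the pair (vertical axis) for each library, by the distance between the sites in bases (horizontal axis, with the number of pairs; the dotted line marks 100 bases). The lines of mutants 1, 2 and 4 and of wild type 3 rise to a peak at 61 to 80 bases and come down beyond 100 bases, and those of mutant 5 and wild types 1 and 2 dip below 0 over the same distances. Because the wild-type mean includes wild type 3, its rise pulls wild types 1 and 2 down by construction.

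The order of the libraries by close-pair ratio was near to their order by the 4 endothelium and pericyte genes and only in part that of the cerebellar genes. Mutants 1, 2 and 4 were the 3 highest libraries and wild types 1 and 2 and mutant 5 the 3 lowest by both the ratio and the endothelium and pericyte level, with wild type 3 and mutant 3 between. The 9 measured excitatory neuron genes gave the same grouping, so it was not particular to the endothelium and pericyte genes. Their mean was 8.57, 8.52 and 8.51 log2 CPM in mutants 1, 2 and 4 and 8.47 in mutant 3. It was 8.37 in wild type 3, 8.35 in mutant 5, and 7.61 and 8.22 in wild types 1 and 2. By the cerebellar level, wild type 3 stood at 6.12 log2 CPM beside wild type 1 at 6.09, although their ratios were 0.39 and 0.12. The part of these marker levels in the shift was not tested beyond the cerebellar covariate fit above. Setting the ratio beside the endothelium and pericyte or the excitatory neuron genes was not planned before the values were seen.

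**Figure D4:**
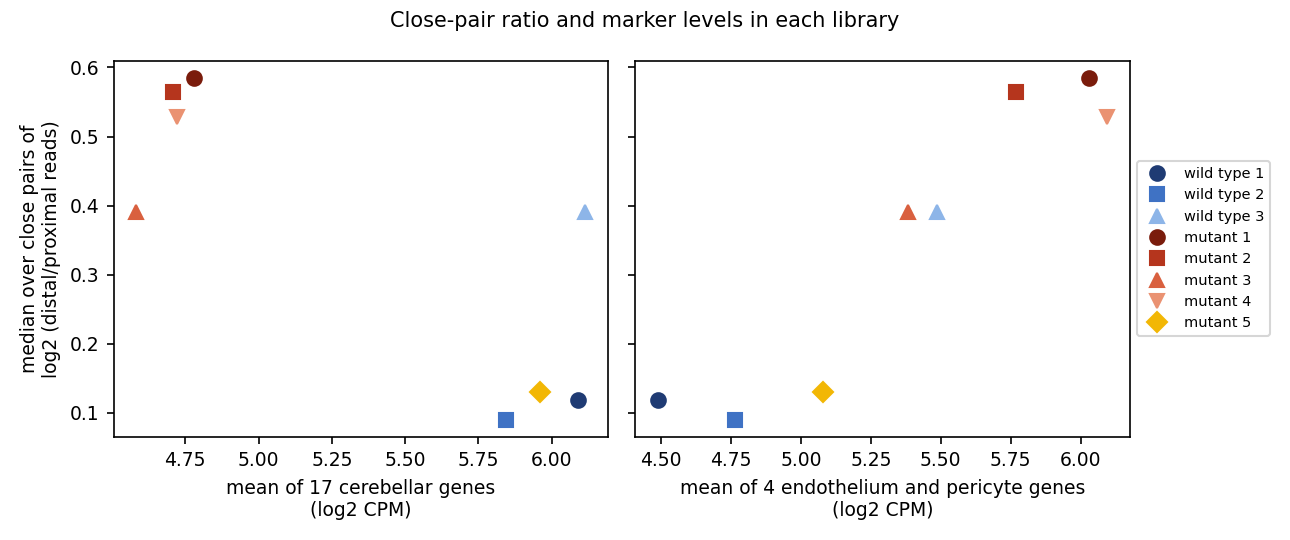
Median over close pairs of the log2 ratio of distal to proximal reads (vertical axis) against the mean level of 17 cerebellar genes (left) and of 4 endothelium and pericyte genes (right), both in log2 CPM, with 1 point a library. On the left, wild type 3 lies apart from wild types 1 and 2 and mutant 5 at a like marker level, and on the right the libraries with the higher marker level have the higher ratio.

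Of the pairs without overlap and with at least 50 reads on average, the largest difference in share was that of Mfsd14a, a transporter-like membrane protein first described as abundant in hippocampus. Its sites lie 29 bases apart, at positions 116334132 and 116334103 of mm9 as the files give them; the files give no chromosome. The distal share was 42.9%, 25% and 68.3% in the wild types and 94.8%, 92.1%, 87.7%, 92.2% and 68.3% in mutants 1 to 5. Mutant 5 and wild type 3 differed only beyond the digits given, so the genotypes were separate by that margin alone. The means were 45.4 ± 21.7% and 87.0 ± 10.8% (SD, n = 3 and 5), with a log2 change of 3.22 (SE 0.69, edgeR adjusted p = 0.354). DESeq2 gave 3.31 with an adjusted p of 0.0228, the lowest over all alternatives, whose highest was 1. With the cerebellar covariate the edgeR log2 change was 1.57. The pair averaged 87.75 reads, and the wild-type 2 share rested on 9 of 36 reads (95% Wilson interval 13.8% to 41.1%, which covers counting error only).

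Other pairs in which all mutants were above all wild types are described here without support from that separation, which the choice required, and edgeR called none of them. Cfap97, a gene associated with cilia, has sites 89 bases apart. Its distal share was 47.8%, 58.4% and 64.7% in the wild types and 85.0%, 75.4%, 79.3%, 77.2% and 65.3% in the mutants. Mutant 5 was again next to wild type 3, and the log2 change was 1.30 (SE 0.365, edgeR adjusted p = 0.354). Dhx57, a putative RNA helicase, has sites 33 bases apart, and its share was 75.5%, 78.2% and 85.2% in wild types and 91.9%, 88.7%, 89.95%, 89.9% and 90.1% in mutants. Here mutant 5 was with the other mutants, and the log2 change was 1.18 (SE 0.285, edgeR adjusted p = 0.354). With the cerebellar covariate the log2 change was 0.51 for Cfap97 and 1.26 for Dhx57.

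Further pairs without overlap on this side had smaller differences in mean share. Tctn2, of the ciliary transition zone, had 78.7 ± 2.35% in wild type and 86.8 ± 3.17% in mutants, and Lrrc56, linked to assembly of ciliary dynein arms, 31.6 ± 5.21% and 39.6 ± 3.19%. Gmnn, which encodes the replication licensing inhibitor geminin, had 46.8 ± 4.33% and 57.7 ± 5.15%. Mis12, a kinetochore component, had 8.83 ± 0.809% and 15.6 ± 3.52%, and Meig1, known from spermiogenesis, 72.4 ± 2.77% and 81.8 ± 4.16%. Tmem167, a small membrane protein of the secretory pathway, had 46.0 ± 1.71% and 53.2 ± 3.42% (SD, n = 3 and 5 throughout), with mutant 4 at 49.2% and so still below 50%. Enho, the precursor of the peptide adropin, was the deepest of them with 3599 reads on average. Its share was 33.5%, 31.3% and 32.1% in the wild types and 41.8%, 42.8%, 40.9%, 34.4% and 34.4% in mutants 1 to 5, so that mutants 4 and 5 were nearer to the wild types than to mutants 1 to 3. The log2 change of Enho was 0.41, and 0.15 with the cerebellar covariate, which also took Mis12 from 0.91 to 0.47 and Meig1 and Gmnn from 0.73 and 0.59 up to 1.18 and 0.99.

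The 10 named pairs that stood the other way had mean differences from -13.2 to -4.53 points. Here too the choice required all mutants to lie below all wild types, so that this separation adds no support. Srrm1, an RNA processing coactivator rich in serine and arginine, has sites 25 bases apart and averaged 2763 reads. Its distal share was 20.8%, 25.8% and 18.9% in wild types and 12.7%, 12.7%, 13.4%, 17.3% and 18.6% in mutants, with a log2 change of -0.67 (SE 0.221, edgeR adjusted p = 0.354). Mutants 4 and 5 were close to wild type 3, and with the cerebellar covariate the log2 change was -0.33. Eid2b, a repressor of differentiation genes, had 42.3%, 58.0% and 44.2% in wild types and 32.9%, 40.3%, 30.8%, 36.8% and 34% in mutants (edgeR log2 change -0.84, SE 0.322, adjusted p = 0.354). The pair averaged 64.4 reads.

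Cops7a, a subunit of the COP9 signalosome, had 27.5%, 26.3% and 21.7% in wild types and 8.11%, 14.6%, 17.2%, 20.4% and 18.6% in mutants. Mutant 4 came nearest to the wild types. Sec31a, of the COPII coat that buds vesicles from the endoplasmic reticulum, had 70.4%, 69.0% and 70.3% against 61.1%, 59.7%, 58.8%, 68.9% and 60.4%. Mutant 4 was next to the wild types, and the other mutants were well below them. Heg1, a receptor of endothelial junctions, had 66.5 ± 2.74% in wild type and 57.3 ± 4.05% in mutants, and Hip1, an adaptor of clathrin-coated vesicles, 85.4 ± 1.79% and 77.5 ± 4.26% (SD, n = 3 and 5). Fgfrl1, a receptor for fibroblast growth factors without a kinase domain, had 37.8 ± 3.66% and 30.6 ± 2.62%. Cavin1, a coat protein of caveolae, had 44.8 ± 0.699% and 39.8 ± 2.75%, Reps1, an endocytic protein, 20.7 ± 3.33% and 15.8 ± 1.64%, and Dtd1, which edits mischarged tRNA, 62.1 ± 3.14% and 57.5 ± 1.17%. The log2 change of Cavin1 was -0.30, and -0.11 with the cerebellar covariate.

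**Figure D5:**
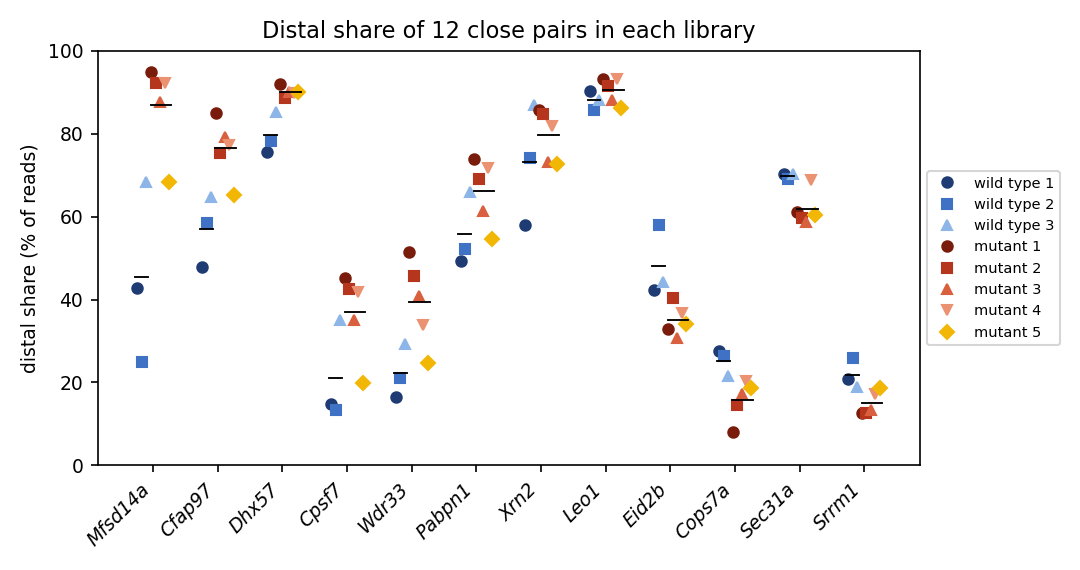
Distal share (percent of reads, vertical axis) in each library for 12 close pairs, with 1 symbol a library and short lines at the means of 3 wild types and 5 mutants. Mutant 5 lies nearest to the wild types at Mfsd14a, Cfap97, Cpsf7 and Wdr33, whereas mutant 4 does at Cops7a and Sec31a.

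Some of the smallest unadjusted p-values belonged to pairs with 1 dominant site. Top2b, the DNA topoisomerase of neurons that have left the cell cycle, used its distal site for 0.861%, 0.705% and 0.604% of reads in wild types and 1.36%, 1.34%, 1.84%, 1.14% and 1.22% in mutants (3928 reads on average). All mutants were above all wild types, and the log2 change was 0.95 (SE 0.225, edgeR adjusted p = 0.354). At Ccdc85c, a protein of cell junctions in the developing cortex, the distal share was 98.4%, 98.4% and 98.6% in wild types and 99.1%, 99.5%, 99.7%, 99.2% and 99.4% in mutants (edgeR log2 change 1.37, SE 0.31, adjusted p = 0.354). The groups did not overlap there either, though the means differed by 0.946 points. Cd300c2, an immunoglobulin-type receptor of myeloid cells, had 20.2 ± 3.29% and 56.8 ± 12.5% from only 26.0 reads on average (log2 change 2.46, SE 0.464; 1.22 with the cerebellar covariate).

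On the proximal side the smallest unadjusted p-values were those of Fxyd5, Stat6, Brsk1 and Srrm1. Fxyd5, a modulator of the sodium pump, had 96.5 ± 0.498% and 93.0 ± 1.56% (log2 change -1.10, SE 0.317). Stat6, a transcription factor of interleukin signalling, had 34.1 ± 6.45% and 19.0 ± 1.10% from 38.5 reads (log2 change -1.15, SE 0.347). Brsk1, a kinase of neuronal polarity and synapses, had 98.2 ± 0.437% and 97.2 ± 0.293% (log2 change -0.67, SE 0.207). The edgeR adjusted p was 0.354 for each.

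Of 22 genes of the cleavage and polyadenylation machinery in the table, 5 had close pairs, and edgeR called 0 of them. All 5 had a positive log2 change, with a median of 0.64, and 2 were at an unadjusted edgeR p under 0.05; the median over the 22 at all distances was 0.15. Over all close pairs 67.7% were positive, 8.78% were at that level with more distal reads in mutants and 1.66% with fewer, and the median was 0.18; the groups that follow are to be read beside the same values. Cpsf7, a subunit of the cleavage factor that binds upstream of the signal, has sites 73 bases apart. Its distal share was 14.9%, 13.5% and 35.1% in wild types 1 to 3 and 45.1%, 42.5%, 35.2%, 41.9% and 19.8% in mutants 1 to 5, with a log2 change of 1.19 (SE 0.487, edgeR adjusted p = 0.356). Wild type 3 was level with mutant 3, and mutant 5 with wild types 1 and 2. Wdr33, the subunit that contacts the polyadenylation signal, has sites 75 bases apart and had 16.4%, 21% and 29.2% in wild types and 51.5%, 45.7%, 40.9%, 33.9% and 24.75% in mutants (edgeR log2 change 1.12, SE 0.39, adjusted p = 0.354). Only mutant 5 lay within the wild-type range.

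The other 3 members of this group were nearer to their spread. Pabpn1, the nuclear poly(A) binding protein, had 55.8 ± 8.91% (SD, n = 3) in wild type and 66.1 ± 7.98% (SD, n = 5) in mutants (edgeR log2 change 0.64, SE 0.317, adjusted p = 0.386); its counts were the same as those listed for an overlapping entry. Leo1, of the elongation-associated PAF complex, had 88 ± 2.35% and 90.5 ± 3.18% (log2 change 0.43, SE 0.338, edgeR adjusted p = 0.525). Xrn2, the nuclease that degrades RNA behind terminating polymerase, had 73.1 ± 14.5% and 79.7 ± 6.28% (log2 change 0.38, SE 0.493, edgeR adjusted p = 0.706), and its log2 change ran down to -0.08 when single libraries were left out. With the cerebellar covariate, the log2 change was 0.17 for Cpsf7, 0.26 for Wdr33, 0.05 for Pabpn1, -0.11 for Leo1 and -0.08 for Xrn2. RNA-binding proteins of other kinds had 6 close pairs, 0 at an unadjusted edgeR p under 0.05 and a median of 0.29; Pum2, a translational repressor, had 31.2 ± 4.27% and 34.8 ± 2.78%, and Fxr2, a relative of FMRP, 99.3% in both genotypes.

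In the neuronal gene groups edgeR called 0 close pairs. Of the glutamatergic postsynapse 4 pairs were close, with a median log2 change of 0.39 and 1 at an unadjusted edgeR p under 0.05 toward the distal site; the scaffold gene Shank1 had 93.5 ± 2.61% and 95.1 ± 0.88% distal reads, and Cnih2, an auxiliary subunit of AMPA receptors, 97.1 ± 0.54% and 97.2 ± 0.353%. Of 11 ion channel pairs 1 was at that level, toward the distal site, and the median was 0.40. The calcium channel Cacna1e had 94.0 ± 1.43% and 95.5 ± 0.639%. GABAergic and interneuron genes (8 pairs, median 0.11), presynaptic genes (7 pairs, median 0.04) and immediate early genes (3 pairs, median 0.29) had 0 at that level. The vesicle transporter Slc32a1 had 99.1 ± 0.191% and 99.3 ± 0.101%, the vesicle GTPase Rab3a 22.1 ± 0.465% and 22.5 ± 0.692%, the calcium sensor Syt1 97.4 ± 0.181% and 97.6 ± 0.229%, and the transcription factor Egr3 64.6 ± 2.71% and 69.0 ± 3.23%.

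The sodium channel gene Scn8a had a library pattern of its own. The distal share was 72.2%, 72.2% and 72.7% in wild types, 67.2%, 64.0% and 68.1% in mutants 1 to 3 and 73.3% and 71.9% in mutants 4 and 5. Mutants 1 to 3 were well below the wild types, mutant 5 was just below them and mutant 4 above, and the log2 change was -0.23 (SE 0.179, edgeR adjusted p = 0.514; -0.03 with the cerebellar covariate). Mutants 1 to 3 stood apart at some other deeply covered pairs at 25 to 29 bases, which were noticed after the values had been seen. How many such pairs lack this pattern was not counted. In Rps3, a small-subunit ribosomal protein averaging 21212 reads, the share was 45.4%, 46.2% and 45.5% in wild types, 53.7%, 53.6% and 53.4% in mutants 1 to 3, and 46.5% and 46.4% in mutants 4 and 5. In Hspa5, the chaperone BiP of the endoplasmic reticulum, it was 54.9%, 56.25% and 52.1%, then 43.8%, 43.1% and 43.4%, then 53.4% and 54.1%. Mutants 1 to 3 thus lay above the other 5 libraries at Rps3 and below them at Hspa5, and the edgeR adjusted p of the genotype effect was 0.398 and 0.379. With the cerebellar covariate the log2 change went from 0.29 to 0.03 at Rps3 and from -0.40 to -0.03 at Hspa5. No label distinguishes mutants 1 to 3 from mutants 4 and 5.

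Housekeeping groups were also without an edgeR call. Of 10 cytosolic ribosomal protein pairs 0 were at an unadjusted edgeR p under 0.05 (median log2 change 0.17), and Rpl36a had 25 ± 4.63% and 27.2 ± 3.72%. Of 28 oxidative phosphorylation pairs 1 was at that level toward distal and 2 toward proximal use (median 0.04). Cox6c, a subunit of cytochrome oxidase, was 99.9 ± 0.0368% and 99.8 ± 0.0149% distal (log2 change -0.72, SE 0.241, edgeR adjusted p = 0.354), and Atp5g3, of the ATP synthase ring, 99.3 ± 0.0965% and 99.3 ± 0.0885%. Chaperones had 21 close pairs with 4 and 1 at that level (median 0.27); in Hsp90ab1 the distal site held 0.107 ± 0.0262% and 0.064 ± 0.0234%. The ubiquitin and proteasome group had 20 pairs with 2 and 0 (median 0.30), including Ube2j1 at 95.9 ± 0.772% and 96.8 ± 0.863% and the proteasome ATPase Psmc5 at 0.14 ± 0.0565% and 0.22 ± 0.0813%.

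The remaining groups had medians on both sides of 0. Microtubule, motor and actin genes (20 pairs, median -0.03) and vacuolar ATPase and lysosome genes (8 pairs, median -0.13) had 0 pairs at an unadjusted edgeR p under 0.05, as had 32 kinase and phosphatase genes (median 0.14). The dynein heavy chain gene Dync1h1 had 1.95 ± 0.104% and 2.37 ± 0.479% distal reads, the tubulin gene Tubb4b 82.1 ± 0.842% and 82.9 ± 1.00%, the phosphatase subunit Ppp2r2c 93.1 ± 1.24% and 90.3 ± 2.54%, and the kinase scaffold Mapk8ip3 1.29 ± 0.234% and 1.07 ± 0.244%. Of 26 solute carriers 3 were at that level, toward the distal site (median 0.18); the GABA transporter Slc6a11 had 97.8 ± 0.303% and 97.3 ± 0.284%. Of 10 genes linked to X-linked intellectual disability 2 were, also toward the distal site (median 0.44). Ids, a lysosomal sulfatase, has sites 81 bases apart and had 12.6%, 12.2% and 18.3% in wild types and 24.6%, 23.2%, 20.8%, 20.5% and 12.8% in mutants (edgeR log2 change 0.60, SE 0.269, adjusted p = 0.365). Mutants 1 to 4 were above all wild types and mutant 5 was with wild types 1 and 2, and the log2 change was -0.10 with the cerebellar covariate. Atp6ap2, an accessory subunit of the proton pump, had 0.497 ± 0.22% and 0.783 ± 0.314%.

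The close pairs with the most reads had mean differences in distal share from -0.184 to 0.77 points, and the upper value rested on 1 library. Nptxr, the neuronal pentraxin receptor, averaged 50959 reads with 79.0 ± 1.18% at the distal site in wild type and 79.8 ± 0.312% in mutants. The difference of 0.77 points was 0.0907 without wild type 1, which had 77.7% where wild types 2 and 3 had 79.7%. Chchd2, a mitochondrial protein, had 99.1 ± 0.0596% and 98.9 ± 0.0813%, with no overlap, and a log2 change of -0.27 (SE 0.125, edgeR adjusted p = 0.366). The metallothionein gene Mt2 had 98.2%, 98.2% and 98.4% in wild types, 99.1%, 99.1% and 99.0% in mutants 1 to 3 and 98.4% and 98.3% in mutants 4 and 5, again with mutants 1 to 3 apart; its log2 change was 0.62, and 0.01 with the cerebellar covariate. Distal shares at Atp6v0e2, a proton pump subunit, were 0.511 ± 0.021% and 0.469 ± 0.0642%, at Fth1, the ferritin heavy chain, 0.37 ± 0.0674% and 0.396 ± 0.0439%, and at the beta-globin gene Hbb-b1 98.2 ± 0.173% and 98.4 ± 0.329%.

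The 4 pairs of at least 200 reads with a wild-type share nearest to 50% included some with wide spread between animals. Nsfl1c, a cofactor of the p97 ATPase, has sites 25 bases apart and had 40.9%, 43.5% and 66.6% in wild types and 80.6%, 76.5%, 58.3%, 80.3% and 43.4% in mutants (edgeR log2 change 1.16, SE 0.587, adjusted p = 0.393). Abcd3, a peroxisomal transporter with sites 28 bases apart, had 38.2%, 46.9% and 64.4% in wild types and 67.0%, 64.2%, 53.9%, 67.1% and 40% in mutants (edgeR log2 change 0.52, SE 0.432, adjusted p = 0.543). In both, wild type 3 was within the mutants and mutant 5 within or near wild types 1 and 2. With the cerebellar covariate the log2 changes were -0.17 and -0.46. Pcbp2, an RNA-binding protein of poly(C) tracts, had 50.2 ± 3.65% and 52.5 ± 5.05%, and Ppp2r5c, a phosphatase subunit, 50.0 ± 9.51% and 51.3 ± 11.2%.

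At the limit of the choice, 8 pairs were exactly 100 bases apart. Plgrkt, a plasminogen receptor, had 91.3%, 89.7% and 59.1% in wild types and 31.1%, 36.1%, 53.3%, 40.3% and 93.8% in mutants; it was opposite in sign to most close pairs but again placed mutant 5 with wild types 1 and 2. Sptssa, of sphingolipid synthesis, had 34.8 ± 21.4% and 58.9 ± 16.9%, Tlr3, a receptor for double-stranded RNA, 12.6 ± 5.39% and 18.7 ± 6.04%, and Myh7b, a myosin gene, 24.0 ± 9.83% and 36.5 ± 3.79%. Zfp1, Mfsd14b, Ctsl and Adcyap1r1 had mean differences from -8.18 to 0.252 points. The 7 pairs that were 1 base wider, Adpgk, Hdac3, Lmf1, Ptprm, Xbp1, Xpo1 and Tmem245, had mean differences from -16.7 points at Ptprm to 21.8 at Adpgk. At the limit on reads, Bcl10 and Slc22a21 were just inside with 20 and 20.25 reads and had 52.6 ± 33.1% and 26.0 ± 8.72%, and 29.5 ± 19.3% and 46.0 ± 14.7%; Baiap2l2 and Itgb2 were just outside with 19.1 and 18.5 reads.

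The abundance of close-pair transcripts, taken as the sum of both sites, did not pass edgeR's test in any gene. The lowest edgeR adjusted p was 0.343, and 0 of 1685 genes were called, as were 0.0% of all tested genes. At an unadjusted edgeR p under 0.05, 122 were higher in mutants (7.24%, where 7.29% of all tested genes were) and 133 lower (7.89%, where 7.05% were), so both shares were near those of the whole table. The median log2 change was 0.04, beside 0.01 over all tested genes. Without mutant 5, edgeR called 11 genes, 1 higher and 10 lower. The share over all tested genes in that fit is not given here, so this count cannot be read as particular to close-pair genes. DESeq2 called 4 genes, all higher in mutants, where it called 0.33% of all tested genes: F2r, Pxdc1, Ythdc2 and Grm8. Of these, Pxdc1 was named after its values were seen.

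The thrombin receptor gene F2r had levels of 0.48, -0.09 and 1.43 log2 CPM in wild types and 2.96, 3.15, 2.65, 3.37 and 1.37 in mutants (edgeR log2 change 2.23, SE 0.508, adjusted p = 0.343). Mutant 5 was just below wild type 3. Ythdc2, an RNA helicase that binds N6-methyladenosine, had 2.71, 2.16 and 2.58 in wild types and 3.39, 3.63, 3.26, 3.35 and 3.07 in mutants, without overlap (log2 change 0.88, SE 0.194, edgeR adjusted p = 0.343). Grm8, a presynaptic glutamate receptor, had 3.14 ± 0.333 and 4.02 ± 0.277 log2 CPM (SD, n = 3 and 5; log2 change 0.88, SE 0.212). Its distal share was also higher, with 58.5%, 50.8% and 79.7% in wild types and 87.3%, 90.5%, 93.1%, 85.1% and 74.6% in mutants (edgeR log2 change 1.87, SE 0.534, adjusted p = 0.354); mutant 5 lay within the wild-type range, and the covariate gave 0.86. Maz, a zinc finger factor, had 2.06 ± 0.206 and 2.86 ± 0.215 log2 CPM, and Pxdc1 -0.01 ± 0.741 and 1.76 ± 0.697.

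The lowest unadjusted p-values toward lower abundance were those of Cbr4, a mitochondrial reductase (log2 change -0.58, SE 0.149), Cd52, a surface peptide of leukocytes (-0.84, SE 0.225), Asgr1, a lectin receptor (-1.02, SE 0.282), and Mrpl51, a mitochondrial ribosomal protein (-0.41, SE 0.122), with an edgeR adjusted p of 0.343 for each. Of 28 oxidative phosphorylation genes with close pairs 14 were lower in mutants at an unadjusted edgeR p under 0.05 and 0 higher, with a median log2 change of -0.41; over all tested genes 7.05% were lower and 7.29% higher, with a median of 0.01. Of 10 ribosomal protein genes 6 were lower and 0 higher, with a median of -0.49. At Cox6c, wild type 1 had 27267 of 9616953 reads, where wild type 2 had 26601 of 17530761. Rpl36a, with 21830 and 20901 reads, was likewise high in wild type 1 for its depth, but Atp5g3, with 15805 and 25958, was not. Counts of these groups without single libraries are not given here, so how far they rest on wild type 1 was not tested. Across the 1685 genes, whose usage and abundance come from the same reads, Spearman's rho between the 2 log2 changes was 0.25.

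A second table gives, for the same kind of library, reads in the 3′-most exon and at a site in an upstream exon. It held 823 of the close-pair genes with enough reads. The 2 tables share reads. In none of the 823 genes did the summed close sites exceed the count given for that exon in any library, and the median of that count over the sum was 1.02. edgeR called 0 of the 823 (0.0% of all 6001 tested genes were called), with 121 at an unadjusted edgeR p under 0.05 toward the 3′-most exon (14.7%, where 11.4% of all tested genes were) and 32 toward the upstream exon (3.89%, where 3.95% were). The median log2 change of 3′-most against upstream reads was 0.24, beside 0.17 over all tested genes. DESeq2 called 2, where it called 0.0833% of all tested genes; both are named here after their values were seen.

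Fbxl16, an F-box protein, had 88.1%, 89.8% and 97.2% of its reads in the 3′-most exon in wild types and 99.4%, 99.5%, 98.9%, 99.3% and 96.9% in mutants (DESeq2 log2 change 3.04, SE 0.69, adjusted p = 0.0302; edgeR adjusted p = 0.23). Mutant 5 was below wild type 3 and the other mutants were above all wild types. Frmd8, a membrane-associated adaptor, had 98.3%, 99.3% and 95.1% in wild types and 79.2%, 79.5%, 88.1%, 80.8% and 96.4% in mutants (DESeq2 log2 change -3.06, SE 0.742, adjusted p = 0.0442; edgeR adjusted p = 0.23). Mutant 5 was within the wild-type range here too. Each of these DESeq2 calls comes without a call by edgeR.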

How the data were processed

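Per the labels' protocols, the QuantSeq REV kit, which primes at poly(A) tails so that reads mark transcript ends, was used on total RNA. The submitters' processing notes list FastQC 0.11.3, STAR 2.5, HTSeq 0.6.0 and mm9 without roles. How sites were picked and delimited, whether internally primed reads were removed and how strand was used are not given in the sources used here; overlapping genes and paralogs are therefore uncertain. The authors deposited whole-number read counts per site and library in 2 tables, per the file headers; they were used as deposited, and 0 value columns were left unused.

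Pairs with a mean of 20 or more reads over both sites and at least 10 reads in all at each site were fitted together (7876 of 7951, and 6001 of 6147 genes with an upstream-exon site). edgeR's quasi-likelihood F test had the library as block and tested the site-by-genotype interaction. Abundance was fitted to the reads of both sites added up, after TMM scaling. Standard errors were derived from the log2 change and F, and p-values were adjusted by Benjamini-Hochberg over all tested pairs at 0.05. Ratios per library had 0.5 added to each count. R 4.3.3, edgeR 4.0.16, limma 3.58.1 and DESeq2 1.42.0 were used, and the fits were tested on simulated data. The simulated counts had a fixed dispersion and no shift shared by many pairs of a library. They therefore do not show how the fits behave where a library shifts many pairs together. Depth was 9616953 to 17530761 reads a library; shares of single libraries carry counting error of the size of the Wilson interval given for 1 pair, and reads have no molecular identifiers.

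The members, gene lists and rules were chosen with earlier results of these data known. Named pairs were the 10 without overlap and with the largest share difference in each direction at a mean of 50 or more reads, the 4 with the smallest p in each direction for usage and for abundance, the 8 with the most reads, the 4 nearest to 50% at a mean of 200 or more, those at the limits, DESeq2's usage call, all of the cleavage machinery and the 2 with most reads of each other list. Symbols are those of the files; 97.6% of close-pair symbols matched the RefSeq gene table. Replicate numbers follow record order and only name libraries.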

Additional observations from a re-analysis of the deposited data

Results flagged for a closer look

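In 3 of 98 groups of values checked (the 5 mutants for each of the named pairs and for the library measures), 1 animal stood far from the other 4 by Dixon's criterion, which flags about 5% of groups by chance. Mutant 5 had a mean cerebellar marker level of 5.96 log2 CPM, where the other mutants had 4.58 to 4.78. At Mfsd14a, mutant 5 had a distal share of 68.3%, where the other mutants had 87.7% to 94.8%. At Sec31a, mutant 4 had a distal share of 68.9%, where the other mutants had 58.8% to 61.1%.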

How the results depend on the processing

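Counts of called close pairs stayed at 0 for site usage under every alternative except DESeq2, which called 1 (Mfsd14a, adjusted p = 0.0228), and for abundance under every alternative except DESeq2, with 4, and leaving out single libraries, with 0 to 11. The count of 176 pairs at an unadjusted edgeR p under 0.05 became 17 with the cerebellar marker level as a covariate, 85 with a limit of 50 bases (1113 pairs) and 43 to 442 with single libraries left out. Shares over all tested pairs are not given for the covariate fit or the fits without a library. Their changes in this count therefore cannot be read as particular to close pairs. The covariate also reversed the median log2 change in usage (-0.0351, and -0.0586 at 41 to 100 and -0.0238 at 25 to 40 bases) and the median in abundance (-0.0259). It reversed the log2 changes of some named pairs as well, among them Leo1 (-0.114) and Xrn2 (-0.082). That of Xrn2 ran from -0.0784 to 0.986 without single libraries. Ids, Nsfl1c and Abcd3 also changed sign with the covariate, as given above. What caused these reversals was not tested. Because only mutant 5 had a cerebellar level within the wild-type range, the covariate fit cannot tell this level and genotype apart. Without the covariate the median in usage kept its sign over all alternatives run, from 0.125 at 50 bases to 0.224 without wild type 3. The 87 pairs without overlap became 97 to 406 with single libraries left out, which itself makes separation easier. No paired analysis was possible because replicate numbers follow record order and no label pairs the animals. Depth limits the pairs near 20 reads, where Bcl10 ranged from 15.2% to 84.6% between libraries.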
